A study of Mus musculus with 4 samples.

Results

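The genes examined here encode CTCF, its germline paralog and parts of the cohesin machinery: Ctcf, Ctcfl, Rad21, Smc3, Stag1, Nipbl, Wapl, Pds5a, Pds5b and Esco1. These 10 genes were chosen by name for their function, out of 20807 autosomal protein-coding genes in the annotation (GENCODE M21, mm10). Earlier results of these data were known when they were chosen. CTCF binding around them was read from ChIP-seq peaks of mouse gastrocnemius, a calf muscle. The animals were B6CASTF1/J females, adults of 2 months, and the hybrid genome was read against mm10 only, so the parental alleles were not told apart. Pool E (biological replicate 1) and pool F (biological replicate 2) each combined 2 gastrocnemius samples and had 2 technical replicates, making 4 libraries with an anti-CTCF antibody and 1 shared control. There was no treatment, and both pools carried the same donor label. Whole muscle holds several cell types, and peaks cannot show in which of them CTCF was bound.

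CTCF recognises a long directional DNA motif through an array of zinc fingers. Cohesin is a ring of SMC proteins closed by the kleisin Rad21 and bound by a Stag subunit; it is loaded with Nipbl, extrudes DNA loops, and is released by Wapl together with Pds5 proteins. CTCF halts cohesin at its sites, mostly where the motifs at the ends of a loop point towards each other, and Esco1 acetylates Smc3, which stabilises cohesin on DNA. CTCF binds at many promoters, and the question asked of the peaks was how it sits at its own gene and at those of its partners.

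Each peak has a summit, a width and a strength, which is the authors' score with no stated scale, so strengths rank peaks within a list. The conservative list, which rests on both pools, held 42163 peaks. The combined list of both pools held 49649 peaks, the list of pool E 50899 and that of pool F 33784. Candidates entered these lists at an irreproducible discovery rate (IDR, a measure of how well the ranks of a peak match between a pair of inputs) of 0.05 or less. Technical replicates were merged in every list and read depth is unknown; without a spread between replicates no test was run. The intervals given with shares are 95% Wilson intervals and take in counting error alone.

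From 50 kb before to 50 kb after the 10 gene bodies lay 64 conservative summits in 2010 kb, or 3.18 per 100 kb. The windows of Ctcf, Ctcfl and Smc3 were the most crowded, at 7.52, 7.94 and 6.19 summits per 100 kb. Those densities were above the windows of 91.5%, 93.4% and 84.5% of autosomal protein-coding genes. Pds5a followed at 3.12, Esco1 at 2.78, Nipbl at 2.36, Pds5b at 2.11, Stag1 at 1.95, Rad21 at 1.54 and Wapl at 1.15. The median over all autosomal protein-coding genes was 2.95 (quartiles 1.32 and 4.97), and 4 of the 10 members lay above it. Every member had a summit in its window, against 86.6% of all such genes, a share close to the ceiling.

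**Figure D1:**
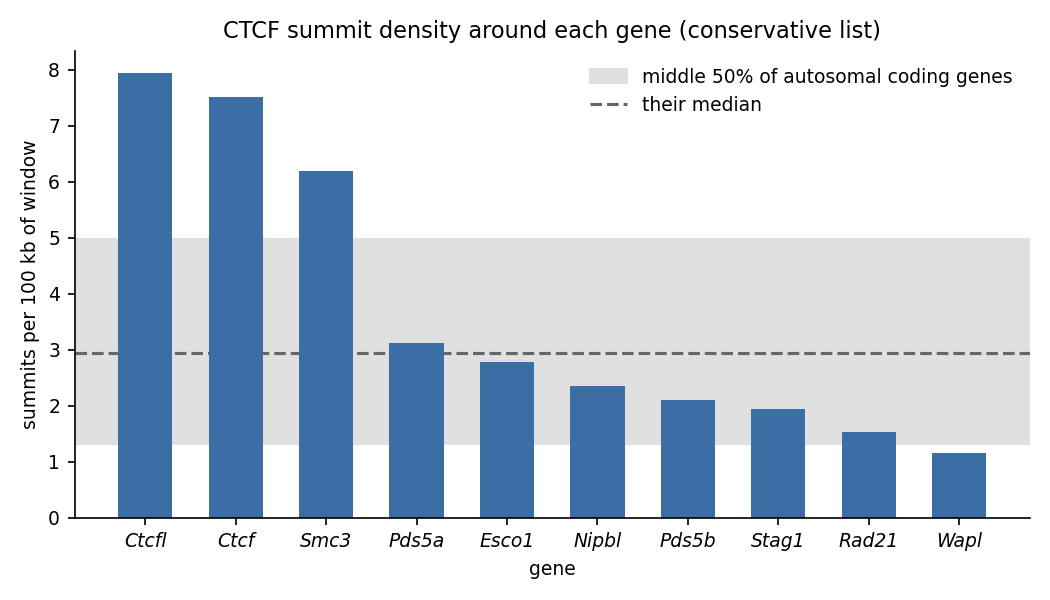
Bars give conservative summits per 100 kb of window (vertical axis) for each of the 10 genes (horizontal axis); the grey band spans the quartiles 1.32 and 4.97 of all autosomal protein-coding genes and the dashed line their median, 2.95. Ctcfl, Ctcf and Smc3 stand above the band and Wapl, at 1.15, below it.

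At gene starts, 6 of 10 members had a summit within 1000 bp (60%, interval 31.3% to 83.2%), against 21.1% of all autosomal protein-coding genes. The 6 were Ctcf, Rad21, Smc3, Pds5a, Pds5b and Esco1. Within 5000 bp the count was 7 with Nipbl added (70.0%, 39.7% to 89.2%), against 38.2%. A summit within 1000 bp that also carried the CTCF motif was found at 4 of 10 members, against 10.8% of all genes. Ctcfl and Wapl had none within 5000 bp, and for Stag1 the answer turned on which start is used, as described with that gene. With 10 genes chosen by hand, and with earlier results of these data known, these shares describe the list only.

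**Figure D2:**
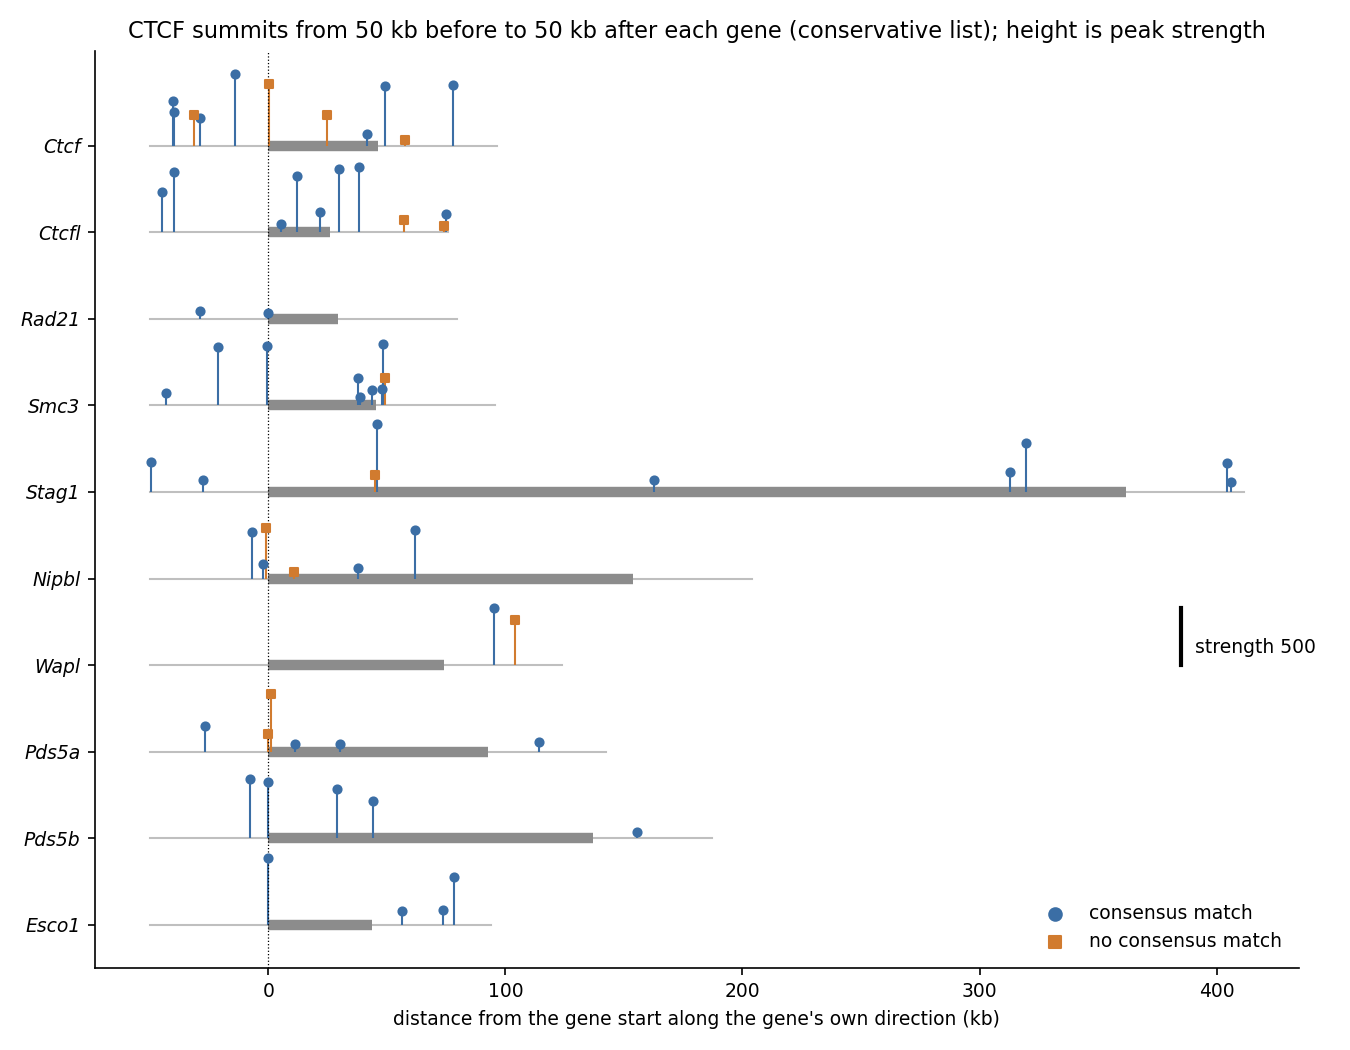
Each row is 1 gene drawn from its start (0) in its own direction in kb, with the gene body as a thick bar and the 50 kb flanks as thin lines; stem height is peak strength (scale bar, 500), circles mark summits with a consensus match within 50 bp and squares those without. Ctcf, Smc3, Nipbl, Pds5a, Pds5b and Esco1 have a tall stem at or close to the start, while Wapl has none over its body or before its start.

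Ctcf (ENSMUSG00000005698.15) lies on the plus strand of chromosome 8, from 105636568 to 105682922. CTCF was bound at its own promoter: a peak from 105636620 to 105637007 had its summit 268 bp into the gene, in intron 1. Its strength was 547.1, rank 3017 of the conservative list. It was present in all 4 lists, with a strength of 339.2 in pool E (rank 931) and 206.9 in pool F (rank 5134). The starts of Agrp, which encodes an appetite neuropeptide and has a long annotated record running the opposite way, and of Gm5914 also lie within 1000 bp of this summit, so the peak cannot be assigned to Ctcf alone.

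The promoter summit of Ctcf had no match to the CTCF core consensus by the rule used throughout, at most 2 mismatches to the 14-base consensus with its centre within 50 bp of the summit. The best match within 50 bp had 3 mismatches. A match with 2 mismatches lay further off inside the same peak, at 105636759 to 105636772 on the plus strand, with its centre 70.5 bp from the summit, so at a limit of 100 bp this summit counts as matched. The 101 bases centred on the summit held 16 CpG dinucleotides and were 79.2% G or C. The summit before the Nipbl start also had a best match of 3 mismatches, with no closer match elsewhere in its peak, in 101 bases with 8 CpG and 62.4% G or C. These 2 sequences are shown because their peaks are strong and their summits lack a match within 50 bp. Each is given along the strand of its best match, which is in capitals (mm10, chr8:105636786-105636886 on the minus strand and chr15:8445418-8445518 on the plus strand). The more distant Ctcf match is given with its flanks (chr8:105636751-105636780, plus).
Ctcf +268: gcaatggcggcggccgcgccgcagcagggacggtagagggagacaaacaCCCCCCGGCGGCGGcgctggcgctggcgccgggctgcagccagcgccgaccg
Ctcf +268, more distant match: gcgggccgCCTCTAGGTGTCACgatggggc
Nipbl −1005: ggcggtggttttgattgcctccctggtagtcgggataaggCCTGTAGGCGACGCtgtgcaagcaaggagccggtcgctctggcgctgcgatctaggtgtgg

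The strongest of the 11 summits around Ctcf was not the promoter. It lay 13999 bp before the start, inside the annotated Agrp record, with a strength of 640.0 (rank 75 of 42163) and an exact consensus match on the plus strand, pointing towards Ctcf. In pool F its strength was 281.6 (rank 155). Both the pool E and the combined list lacked it. In the ranked lists behind them it was listed at 357.3 with an IDR of 0.6 (pool E) and at 640.0 with an IDR of 0.18 (combined), above the threshold in both.

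Further before the start, the summits at −40051 and −39606 had strengths of 400.2 and 298.4, each with 2 mismatches. The summit at −31534 (273.7, no match) lay 221 bp from the start of Ripor1, which encodes a regulator of the GTPase RhoA. The one at −28795 (244.5) lay in intron 1 of Ripor1 with an exact match on the minus strand. Within Ctcf itself, a summit of 269.7 in intron 2, without a match and near the start of Gm5915, was followed by one of 102.0 in intron 10. Beyond the end of Ctcf were a summit of 531.8 that lay 351 bp from the start of Carmil2, a weak one of 49.1 in coding exon 30 of Carmil2, and one of 536.4 in the 3′ UTR of Gfod2 with an exact match. The weak Carmil2 exon peak was in neither pool's list, at strengths of 37.0 and 14.6 in the inputs.

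The 3 exact matches near Ctcf are shown to compare binding on like letters, with the consensus positions in capitals (mm10; chr8:105622558-105622587 plus, chr8:105714343-105714372 plus, chr8:105607754-105607783 minus). Their peaks ranged from 640.0 to 244.5 in strength although none departs from the consensus.
Ctcf −13999: agctgtcgCCACCAGGGGGCAGcagaactg
Ctcf +77789: gccttcttCCAGTAGGGGGCGCtgcaggac
Ctcf −28795: gattcttcCCACTAGGGGGCGGgagagatg

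Ctcfl encodes BORIS, a paralog of CTCF known for its role in the male germline. It lies on the minus strand of chromosome 2, from 173093609 to 173119525. None of its 10 summits was at its start: the nearest lay 5511 bp into the gene, in intron 3, with a strength of 70.2. The strongest was 576.5, some 12520 bp beyond the gene's end, with 342.1 in pool E and 240.4 in pool F.

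In intron 9 of Ctcfl, at a summit of moderate strength (180.2; 130.7 in the first input and 46.5 in the second), the reference holds a tandem run of CTCF sites. It contains 6 matches of 1 mismatch each, all on the minus strand and spaced 32 bp apart. The run is shown whole, along the minus strand, with the matches in capitals (mm10, chr2:173097382-173097571, 190 bases, in no annotated exon). The summit lay at position 173097563, at one end of the run.
Ctcfl intron 9: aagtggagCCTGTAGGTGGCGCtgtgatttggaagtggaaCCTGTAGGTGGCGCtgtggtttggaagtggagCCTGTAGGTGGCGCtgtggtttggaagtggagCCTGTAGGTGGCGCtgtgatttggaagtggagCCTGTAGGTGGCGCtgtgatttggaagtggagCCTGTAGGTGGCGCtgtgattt

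Among the ring subunits, Smc3 had the most crowded window and Rad21 the least crowded, at 6.19 and 1.54 summits per 100 kb. Smc3 (plus strand of chromosome 19, 53600398 to 53645833) encodes an SMC arm of the ring. Its start had a summit at −485 of strength 521.9, with 315.9 in pool E and 208.7 in pool F, and the start of AC137853.1 lay within 1000 bp of it too. Its strongest summit, 539.5 (312.5 in pool E and 230.4 in pool F), lay 3085 bp beyond the gene's end.

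Rad21 (minus strand of chromosome 15, 51962240 to 51991747) encodes the kleisin that closes the ring. It had 2 summits, both weak. The start peak, 161 bp before the gene, had a strength of 56.7 and ranked 41076 of 42163. In pool E it was listed at 39.5. It was not in the pool F list, where the candidate had a strength of 17.8 and an IDR of 0.18. The stronger one, 71.8 at −28641, was in both pool lists (43.4 and 28.0). No Rad21 summit was in the stronger 50% of the conservative list.

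Stag1 (plus strand of chromosome 9, 100597798 to 100959375) encodes a subunit that binds the ring and CTCF. Its strongest summit, 605.2 (rank 547; 340.4 in pool E and 265.2 in pool F), lay 45788 bp into the gene record, which is why Stag1 is not counted as bound at its start. The principal transcript begins further in, at 100643448, and the summit lay 138 bp downstream of that, in its 5′ UTR. A second summit, of strength 148.1, lay at −520 from the same transcript start. The summit nearest to the start of the gene record, at −27601, had a strength of 107.9 and lay 893 bp from the start of Slc35g2. Counting any annotated transcript start, 7 of 10 members had a summit within 1000 bp. The share of all genes by this wider rule was not counted, so that count has no background here. The strongest Stag1 peak was absent from the combined list, where the ranked candidate had an IDR of 0.094. It covers 2 exact consensus matches, at 100643573 and 100643631 on the plus strand, and the summit fell on the last base of the first.

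The start-proximal matches of the ring subunits are set side by side, since they run from a peak among the strongest to one of the weakest (mm10; Stag1 chr9:100643565-100643594 plus, Smc3 chr19:53599901-53599930 plus, Rad21 chr15:51991872-51991901 minus). They have 0, 1 and 2 mismatches in that order.
Stag1 +45788: cagcgcggCCAGCAGAGGGCGGtcgggacc
Smc3 −485: gctcggaaCCAGCAGGAGGCGCtctgagct
Rad21 −161: ctccgtggCCAATAGGTGGCTGgtccagag

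Nipbl (minus strand of chromosome 15, 8290617 to 8444463) encodes the loader. Its strongest summit, 442.5 (265.8 in pool E and 173.9 in pool F), lay 1005 bp before the start, 5 bp outside the nearer distance, and another of 129.8 lay at −2115. Pool E alone listed a weak peak 62 bp into the gene (27.8). Both pools thus listed the peaks before the start.

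Wapl (plus strand of chromosome 14, 34673928 to 34747983) encodes the factor that releases cohesin. No conservative summit lay in its body or before its start, and the nearest one to the start lay at −52743, outside the window. The strongest of its 2 summits, 500 (321.2 in pool E and 180.7 in pool F), lay 21158 bp beyond the gene's end, near the start of Gm49032. At the start, only the ranked lists of pool E and of the combined inputs held a candidate, of strength 17.3 (IDR 0.6) and 21.8 (IDR 0.59).

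Pds5a and Pds5b encode related cohesin regulators and lie on chromosome 5. At Pds5a (minus strand, 65605721 to 65698273) a summit 74 bp before the start had a strength of 158.9 (127.9 in pool E and 54.6 in pool F). A stronger one, 504.3 (295.2 and 210.2), lay 1331 bp into the gene in intron 1. Neither had a consensus match within 50 bp. At Pds5b (plus strand, 150673739 to 150810690) the start summit, 38 bp before the gene, had a strength of 498.9 (282.4 and 215.6) and 1 mismatch. The strongest Pds5b summit, 522.0 (295.2 and 224.3), lay at −7860, 304 bp from the start of N4bp2l2. At the start itself, the Pds5b peak (498.9) thus had a match, and the weaker Pds5a peak (158.9) had none. The Pds5a peak closest in strength to it, 504.3, lay further off, 1331 bp into the gene. The Pds5a sequence below belongs to the weaker peak at −74.
Pds5b −38 (chr5:150673685-150673714, plus): ccgtgcggCCGGTAGGGGGCGCtgagaacc
Pds5a −74, best match of 3 mismatches (chr5:65698317-65698346, minus): cttggcgcCAAACGGGTGGCGGcgctgtcc

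Over all windows, 51 of 64 summits had a consensus match (79.7%, interval 68.3% to 87.7%), against 77.6% of all autosomal summits and 3.2% of windows displaced by 2000 bp. Of these, 8 were exact, 17 had 1 mismatch and 26 had 2, with median strengths of 526, 429 and 119. The 13 summits without a match within 50 bp had a median of 245, and 2 of them, both near Ctcf (+268 and +57679), had a match with 2 mismatches elsewhere in the peak. Over all autosomal summits the medians were 292 with a match and 145 without. Near the starts, 4 of 6 summits within 1000 bp had a match, against 49.6% of autosomal summits that close to a protein-coding gene start, and 5 of 9 within 5000 bp did.

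**Figure D3:**
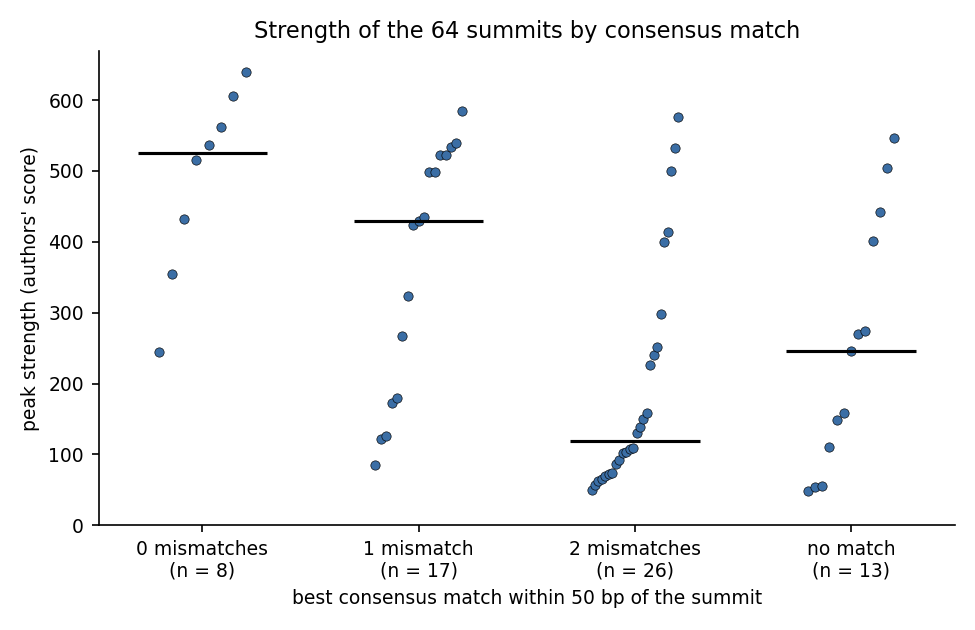
Points are the 64 summits, by best consensus match within 50 bp (horizontal axis) and peak strength (vertical axis); black lines are medians. Medians fall from 526 to 119 between 0 and 2 mismatches, and the 13 summits without a match spread from 49.1 to 547.1.

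Read from the DNA, 8 of the 9 exact matches in the windows carried a summit within 50 bp (88.9%, 56.5% to 98.0%), against 79.5% over the autosomes. The exception was the second Stag1 match, inside the same peak. With 1 mismatch the share was 18 of 59 (30.5%, 20.3% to 43.1%) against 24.9%, and with 2 mismatches 27 of 397 (6.8%, 4.72% to 9.71%) against 3.37%. The autosomal shares take in every site, also those far from genes, whereas the member sites all lie in gene windows. Shares in the windows of all genes were not counted, so these gaps cannot be read as particular to the members. Sites that share a summit are counted separately. In the Ctcfl run, the matches starting at 173097518 and 173097550 counted as carrying the summit, and the rest of the run as without one.

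Of the 64 summits, 13 lay in sequence that the reference masks as repeats, against 19.8% of autosomal summits. Their median strength was 86.2 and the highest 267.6. A run of 12 bases, CCAGAAGAGGGC, opened the match at 8 of the 51 matched summits, all 8 masked and from 4 genes, with strengths from 62.8 to 267.6. Over the autosomes the same start was found at 14.0% of matched summits, the most frequent one, and 92.3% of those were masked. The share near these genes is thus close to the background. B2 short interspersed repeats of rodents are known to carry CTCF motifs, but repeat families were not annotated here. Matches from 3 genes are shown as examples (mm10, chr9:101002242-101002271 minus, chr19:53638242-53638271 minus, chr5:65667869-65667898 minus). They share the 12 bases because they were picked for them. Not all of the 8 matches end in AT as these do.
Stag1 +404461: tagggtggCCAGAAGAGGGCATcagctacc
Smc3 +37866: cctgtgtgCCAGAAGAGGGCATcatatccc
Pds5a +30425: cagacatgCCAGAAGAGGGCATcagatctc

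Motif direction was read between neighbouring matched summits within 200 kb. Of 41 pairs, 12 were convergent (29.3%, 17.6% to 44.5%), 12 divergent (29.3%, 17.6% to 44.5%) and 17 tandem (41.5%, 27.8% to 56.6%). Over the autosomes the shares were 23.5%, 25.2% and 51.3%. Neighbouring pairs share a summit and are not independent, so the intervals cannot judge the members against these shares. Along a window convergent and divergent pairs must alternate, so their equal counts follow from the way pairs are counted. Smc3 had 3 convergent pairs of 7, Ctcf 2 of 6, and Pds5a none of 3. With at most 1 mismatch allowed, fewer summits had a match and the convergent share was 11.8%. The autosomal shares were counted at up to 2 mismatches, so they are no background for that value.

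By position, 22 summits were in gene bodies, 22 before the start and 20 after the end. By annotation, 33 were intronic and 27 intergenic. Their median strength, 249, was close to the 247 of all autosomal summits, and 32 of 64 were in the stronger 50% of the list. The range ran from 49.1 to 640.0.

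Between the pools, all 64 summits were stronger in the first input than in the second, with a median log2 ratio of 1.0 (range 0.17 to 2.03) against 1.03 over all autosomal summits. The first input was read as pool E and the second as pool F, since strength values matched the ranked pool lists for 84.3% and 77.4% of peaks. At a reciprocal overlap of 50%, 56 of 64 had a partner in pool E (87.5%, 77.2% to 93.5%) and 45 in pool F (70.3%, 58.2% to 80.1%), against 87.7% and 66.2% of autosomal peaks. The 14 that overlapped no pool F peak were weak, at most 125.4. The 2 that overlapped no pool E peak were the strongest summit of Ctcf (640.0) and the weakest (49.1).

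**Figure D4:**
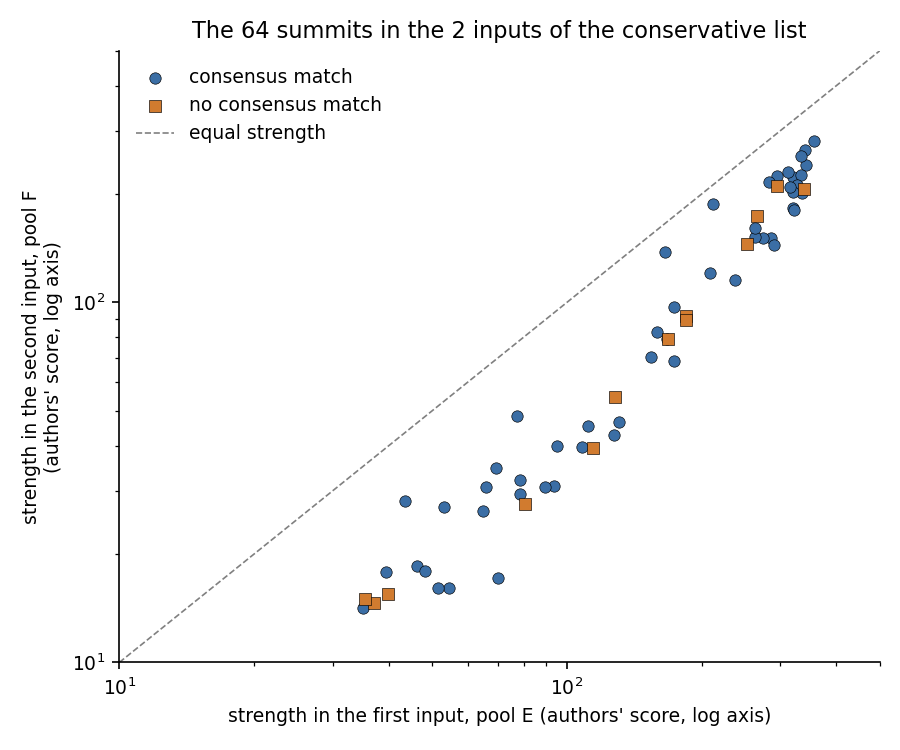
Each point is 1 of the 64 summits, with its strength in the first input (pool E, horizontal) and the second (pool F, vertical), both on log axes; the dashed line marks equal strength. All 64 lie below the line, and the largest log2 ratio, 2.03, belongs to a Pds5a peak of strength 86.2.

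Esco1 (minus strand of chromosome 18, 10566507 to 10610352) encodes the cohesin acetyltransferase. Its start summit, 72 bp before the gene, was its strongest at 584.3 (rank 1204; 333.5 in pool E and 255.1 in pool F) and had 1 mismatch. It was absent from the combined list, where the candidate had an IDR of 0.096. The other 3 summits lay in introns of Greb1l. In the same window the strongest candidate that did not enter the conservative list, with a strength of 658.5 and rank 118 of the 102748 in the ranked list, lay 34 bp before the start of Snrpd1, a spliceosome gene. Its IDR was 0.11 there, 0.14 in the combined list and 0.094 in pool E, and it was listed only in pool F (296.7, rank 38).

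The 3 summits of the 64 that were missing from the combined list were thus among the strongest: Ctcf −13999 (640.0), Stag1 +45788 (605.2) and Esco1 −72 (584.3). Among all 102748 candidates behind the conservative list they ranked 281, 910 and 1616. Their higher ranks in the conservative list itself leave out stronger candidates that did not pass. Losses of strong peaks from a list were not particular to these genes. In the ranked list behind the conservative list, 91.0% of the 100 strongest autosomal candidates had an IDR over 0.05, as did 49.5% of those ranked 101 to 500 and 0.237% of those ranked 2001 to 10000. Behind the combined list these shares were 98.0%, 73.2% and 1.51%. What set them was not tested. A peak missing from a thresholded list was thus not always a weak peak.

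**Figure D5:**
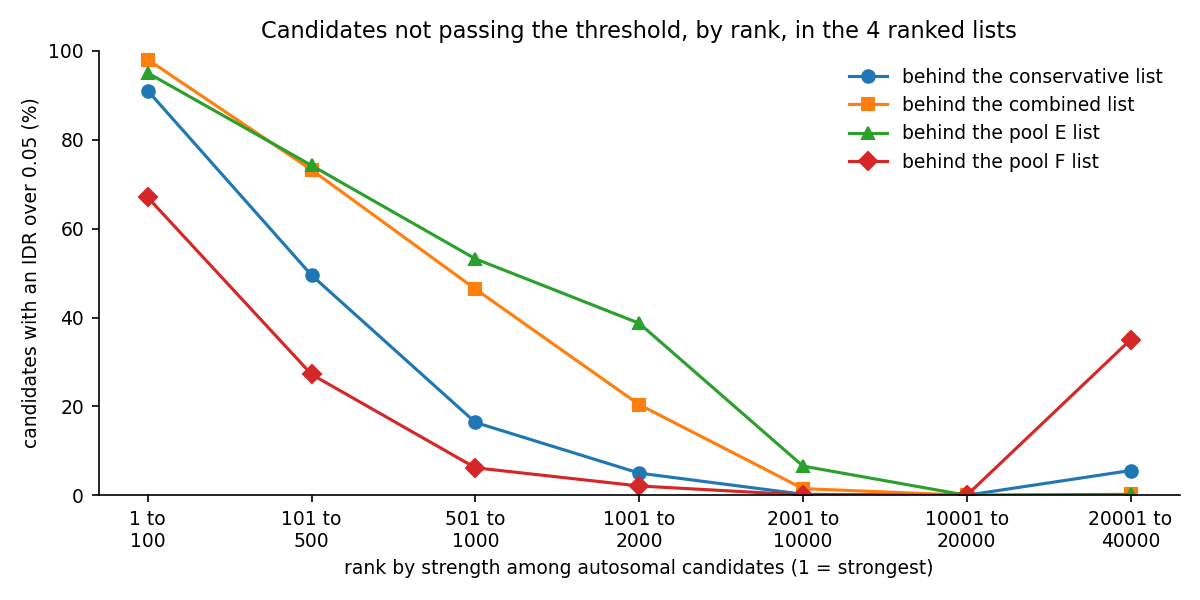
Lines give the percentage of autosomal candidates with an IDR over 0.05 (vertical axis) by rank of strength (horizontal axis) in the 4 ranked lists. Among the strongest 100, the share runs from 67% behind the pool F list to 98.0% behind the combined list.

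For the wider pathway, 37 further genes of CTCF partners, cohesin, its regulators and other SMC complexes were read the same way. Of these, 10 had a summit within 1000 bp of their start (27.0%, interval 15.4% to 43.0%) and 15 within 5000 bp. On autosomes alone it was 8 of 34 within 1000 bp, or 23.5%, beside the 21.1% of all autosomal genes. Within 5000 bp it was 13 of 34, or 38.2%, the same as the 38.2% of all autosomal genes. The strongest was at Chd8, a chromatin remodeller that binds CTCF (595.6 at −201), without a match, whereas Zfp143, another factor found at CTCF sites, had its nearest summit at −13643. Of cohesin core subunits, the X-linked Stag2 had 422.2 at −83, while the meiotic Smc1b had none within 5000 bp. None of the 4 loading and release genes, of which Mau2 was listed first, and neither of the 2 acetylation-cycle genes, Esco2 and Hdac8, had one within 5000 bp. Groups this small are described only, and their counts cannot be set against the share of all genes. In the cleavage and protection group, Sgo1, a protector of centromeric cohesin, had summits of 226.9 at −390 and 262.3 at −4942. Espl1, the separase, had none within 5000 bp, although 12 lay in its window, the nearest at −8676. Among condensins and other SMC complexes, Ncapg had 321.9 at −1410 and Smc2 had none within 5000 bp.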

How the data were processed

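CTCF ChIP-seq peaks of gastrocnemius were used as the authors deposited them, in 4 thresholded and 4 ranked lists on mm10. Frozen tissue was used and fragments of 200 to 600 bp were kept, per the labels' protocols. For aligner and peak caller, tool and version are not given in the sources used here. The deposited score of each peak, on no stated scale, is its strength. The IDR was deposited as −log10 in the ranked lists, with a threshold of 0.05. Read depth is unknown.

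Summits were placed on GENCODE M21 genes, windows reached 50 kb to each side, and gene starts were the 5′ ends of gene records. Sequences came from the RefSeq GRCm38 genome, read with pysam 0.24.0. The motif was the CTCF core consensus (14 bases, at most 2 mismatches, centre within 50 bp of the summit, both strands). Counting, motif search and overlap were tested on simulated data. Python 3.11.15, pandas 2.3.3 and scipy 1.17.1 were used. The members and gene lists were chosen with earlier results of these data known. Named summits were all of those near Ctcf and, for other members, the strongest, the nearest to the start and those within 5000 bp of it; of the other genes, the one with the strongest summit and the first listed without one in each role group. Alternatives were other lists, windows, distances, motif settings and overlaps. The tandem run, the repeated 12 bases, the rank classes and matches with 3 mismatches or beyond 50 bp were examined after the data were seen, as was the Snrpd1 candidate.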

Additional observations from a re-analysis of the deposited data

How the results depend on the processing

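Of 62 alternatives to the main counts and shares, 53 stayed within 1.5 times the count or within the interval of the share. A window of 20 kb gave 6 summits around Ctcf and 41 in all, and one of 100 kb gave 106 in all. The stronger 50% of the peaks left 32 summits, 1.59 per 100 kb, and 3 of the 37 further genes with a summit within 1000 bp. At most 1 mismatch lowered the share of summits with a match to 39.1% and the convergent share to 11.8%. Neither has an autosomal share at that setting beside it. A reciprocal overlap of 80% left 6 summits with a partner in both pool lists, against 41 at 50% and 49 at 1 bp. Members with a summit within 1000 bp numbered 5 in the combined list, 7 in pool E, 5 in pool F and 4 in the stronger 50%. The share of all genes was counted in the whole conservative list alone, so counts from other lists have no background beside them. For single members, 41 of 63 alternatives stayed within these limits; Rad21 had 1 summit in pool F and Wapl 4 in pool E. No paired analysis was possible because technical replicates are merged in every list and no result comes from a test.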

Other observations

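In the ranked list behind the conservative list, 58.8% of autosomal candidates did not pass the threshold. In the windows of the 10 members it was 79 of 143, or 55.2%. Around Wapl, 10 of the 12 candidates did not pass, with strengths from 12.7 to 47.1. The strongest of these lay 79242 bp from the gene's start and had a consensus match of 1 mismatch. Another, of 43.8, lay 6419 bp into the gene. Both overlapped peaks of the pool E and combined lists, so the pool E list holds CTCF peaks near Wapl that the conservative list does not.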
